A study of Rattus norvegicus with 12 samples.

Results

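The 6 genes described here are Cyp4a8, Cyp4a8-ps1, Clec2g, LOC100909928, Kdr and Apela. They were chosen by their measured values, for very large changes with CYT or between preconditioned and plain CYT cells, so their values in those comparisons are given as a description with no test. They are 6 of the 34034 gene symbols in the count table, and all 6 were among the 14324 genes kept by the filter on low counts. Bulk RNA-seq of polyA RNA covered INS-1E cells, a rat insulinoma β-cell line labelled wild type, in 4 groups of 3 libraries labelled as biological replicates. Untreated cells received no cytokine. IL-1βlow cells were conditioned with IL-1β at 10 pg/ml for 72 h, with fresh cytokine added daily. CYT cells were challenged for 16 h with IL-1β at 100 pg/ml plus IFN-γ at 5 ng/ml, and IL-1βlow + CYT cells received the conditioning, a change of medium and then the challenge. All groups are 1 cell line in culture, without the endothelial, immune and stromal cells of an islet, and p-values measure the spread between these libraries, which the labels do not tie to separate cell stocks.

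The genes belong to 4 biological settings. Cytochrome P450 enzymes of family 4 hydroxylate fatty acids, arachidonic acid included, at the far end of the chain, and several of their genes are classic targets of the nuclear receptor PPARα in liver and kidney. Clec2 genes encode C-type lectin-like surface proteins, members of which are bound by NKR-P1 receptors of natural killer cells. Kdr encodes the main signalling receptor for VEGF-A and is best known from endothelium, to which β-cells supply VEGF-A in the islet. Apela encodes a secreted peptide hormone that shares the receptor Aplnr with apelin and was first described in the embryo. RefSeq annotates Cyp4a8, Clec2g, Kdr and Apela as protein coding, Cyp4a8-ps1 as a transcribed pseudogene and LOC100909928 as a long non-coding RNA.

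The RefSeq promoter tables (build GRCr8) held 4 of the 6 genes. The 250 bases before the annotated start of Clec2g, Kdr and Apela are shown because these windows hold matches to motifs of transcription factors, those of interferon and NF-κB signalling included, and the challenge combines IFN-γ with IL-1β. Each is printed 5′ to 3′ on the strand of its gene, and capitals mark every match, on either strand, to the motifs searched. The 3 genes lie on the plus strand, at chr4:164303643-164303892, chr14:32571813-32572062 and chr16:29460605-29460854.
Clec2g: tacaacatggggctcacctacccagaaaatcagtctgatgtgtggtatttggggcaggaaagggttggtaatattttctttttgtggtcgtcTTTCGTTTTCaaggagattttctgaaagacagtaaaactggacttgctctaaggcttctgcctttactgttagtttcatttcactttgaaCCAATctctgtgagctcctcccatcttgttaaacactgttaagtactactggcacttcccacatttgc
Kdr: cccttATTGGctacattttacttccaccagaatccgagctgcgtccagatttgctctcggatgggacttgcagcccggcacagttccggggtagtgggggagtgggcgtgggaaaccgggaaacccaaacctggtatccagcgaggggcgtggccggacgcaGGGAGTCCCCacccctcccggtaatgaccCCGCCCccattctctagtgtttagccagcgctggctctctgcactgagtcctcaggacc
Apela: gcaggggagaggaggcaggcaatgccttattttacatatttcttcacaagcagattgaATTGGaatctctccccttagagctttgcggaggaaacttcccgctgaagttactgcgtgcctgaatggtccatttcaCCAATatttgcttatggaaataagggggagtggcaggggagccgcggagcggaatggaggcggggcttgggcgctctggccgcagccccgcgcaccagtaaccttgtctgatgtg

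The 6 motifs were a core of the interferon-stimulated response element (GAAA, any 2 bases, GAAA), the NF-κB consensus, the AP-1 site (TGANTCA), the core element of nuclear receptors (AGGTCA), the GC box (GGGCGG) and the CCAAT box (CCAAT). The motifs were searched in 33469 rat promoters of the same length. Clec2g held the interferon-stimulated core on the minus strand, 158 to 149 bases before the start, which 3.41% of promoters share, and a CCAAT box. In Kdr the NF-κB consensus lay 88 to 79 bases before the start, as in 3.54% of promoters, with a GC box (30.5% of promoters) and a CCAAT box (34.0%). Apela had 2 CCAAT boxes and no match to the other motifs, and Cyp4a8 had no match to any of the 6. AP-1 sites and nuclear receptor elements, held by 6.34% and 14.1% of promoters, were in none of the 4 windows. These matches are letters in a window and say nothing of binding.

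Across the whole table, total counts ran from 15812640 to 20246806 per library. Levels below are counts per 1000000 reads (CPM) on TMM-normalized library sizes, and fold changes are log2 values with their SE from 1 edgeR quasi-likelihood fit of all 12 libraries. A gene was called at a Benjamini-Hochberg adjusted p under 0.01 with a log2 fold change beyond 0.6 for IL-1βlow vs. untreated, or beyond 1 in the other comparisons. The 19 β-cell markers summed to 54500 to 64300 CPM in untreated and 50500 to 60700 CPM in IL-1βlow libraries. The sum was 21100 to 23700 CPM in CYT and 29800 to 34800 CPM in IL-1βlow + CYT libraries. Ins1 made up much of it, with a mean of 24000 CPM in untreated cells, while G6pc2 and Ucn3 were below 1 CPM in every library. Of the 17 tested, CYT called 10 lower, where 21.6% of all genes were called. In IL-1βlow + CYT vs. CYT 4 were called higher, where 12.5% of all genes were called. The part of this change in the values of the 6 genes was not tested. In a bulk sample, fewer cells of a type and less RNA per cell cannot be told apart.

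Cyp4a8 and its neighbour Cyp4a8-ps1 were low in CYT cells alone. Cyp4a8 measured 132, 109 and 86.7 CPM in the untreated libraries, 180, 133 and 158 CPM after IL-1βlow, 10.8, 6.24 and 4.70 CPM after CYT, and 104, 76.0 and 67.3 CPM after IL-1βlow + CYT. Every CYT library was thus far below every other library, while the untreated and IL-1βlow + CYT ranges overlapped. On summed counts, 397 in CYT and 5562 in untreated cells, the level was 15.2-fold lower with CYT (95% exact counting interval 13.7 to 16.9). IL-1βlow + CYT cells held 11.4 times the CYT level (10.3 to 12.7) and 75.7% of the untreated mean. These intervals cover counting error only.

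Cyp4a8-ps1 followed the same course at fewer counts. Its levels were 7.39, 7.10 and 4.56 CPM in untreated cells, 11.0, 7.67 and 8.70 CPM after IL-1βlow, 0.163, 0.291 and 0.102 CPM after CYT, and 4.56, 4.03 and 2.91 CPM after IL-1βlow + CYT. The CYT values rest on 3, 5 and 2 reads. The summed level was 35.2-fold lower in CYT than in untreated cells (18.9 to 74.0), and in IL-1βlow + CYT cells it was 21.2 times the CYT level (11.3 to 44.8). As log2 fold changes, CYT vs. untreated was -5.07 ± 0.37 for Cyp4a8-ps1 and -3.92 ± 0.26 for Cyp4a8, the 9th and 32nd lowest of all genes tested. In IL-1βlow + CYT vs. CYT the values were 4.35 ± 0.38 and 3.51 ± 0.26, ranking 7th and 22nd from the top. The plot of all 6 genes by library shows these levels beside those of the other members.

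**Figure D1:**
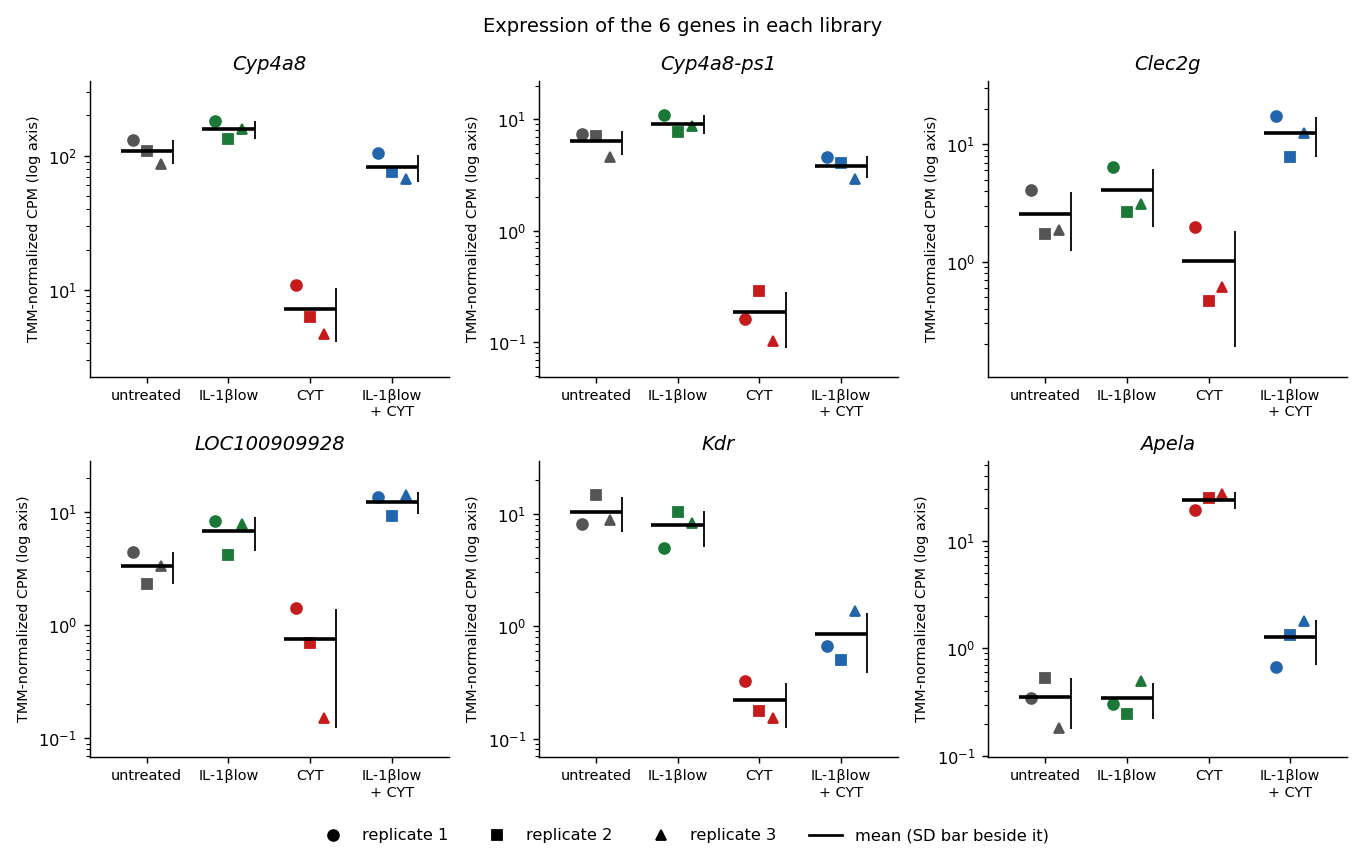
TMM-normalized CPM (log axis) of the 6 genes in each of the 12 libraries, with a marker shape for each replicate number, a line at each group mean and a bar of 1 SD. CYT libraries are lowest for Cyp4a8, Cyp4a8-ps1 and Kdr and highest for Apela; Clec2g and LOC100909928 are highest in IL-1βlow + CYT libraries.

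The pseudogene's share of the counts of both genes was 5.50% in untreated cells (95% exact binomial interval 4.94 to 6.12), 5.52% after IL-1βlow (5.05 to 6.02), 2.46% after CYT (1.18 to 4.47) and 4.47% after IL-1βlow + CYT (3.89 to 5.11). The CYT share rests on 10 of 407 reads, and in CYT replicate 2 alone it was 4.46% (1.47 to 10.1). Pooled over libraries, such intervals cover counting error only and not the spread between cultures. A share of counts is not a ratio of molecules, since gene length was not used. How reads that match both genes were assigned is not given in the sources used here, so the split between the pair is uncertain. In GRCr8, Cyp4a8 also overlaps Mcts1-ps1, a symbol that is not in the count table.

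**Figure D2:**
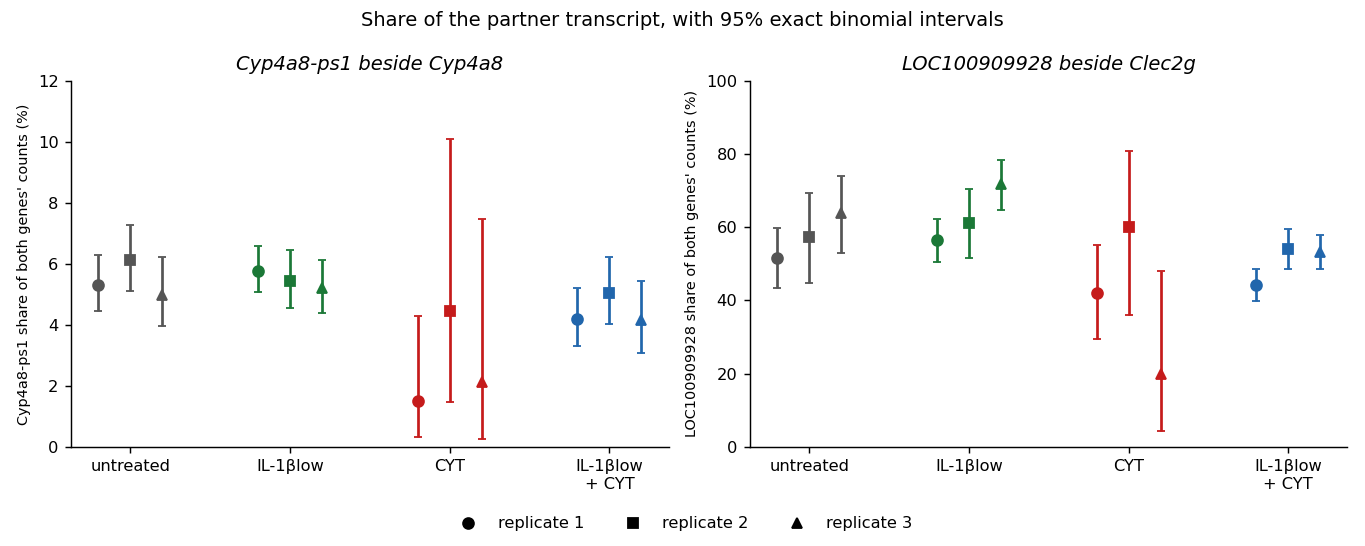
Share of Cyp4a8-ps1 in the counts of Cyp4a8 plus Cyp4a8-ps1 (left) and of LOC100909928 in the counts of Clec2g plus LOC100909928 (right), in percent, for each library with its 95% exact binomial interval. The intervals are widest in CYT libraries, where Cyp4a8-ps1 has 3, 5 and 2 reads.

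The comparisons IL-1βlow vs. untreated and IL-1βlow + CYT vs. IL-1βlow ask what the conditioning did on its own and what the challenge did to conditioned cells. Both share libraries with the comparisons used to choose the genes. The latter is itself a change with CYT and holds the IL-1βlow + CYT libraries, so its values, p-values and calls for the 6 genes are a description. With IL-1βlow alone, 0 of the 6 genes were called in edgeR, against 0.433% of all genes tested, and DESeq2 and exactTest called 0. In edgeR 3 members, Cyp4a8, Cyp4a8-ps1 and LOC100909928, had an unadjusted p under 0.05, among 1982 of all 14324 genes tested. Cyp4a8 measured 157 ± 23.3 CPM (SD, n = 3) against 109 ± 22.4 CPM, a log2 fold change of 0.53 ± 0.22 with an adjusted p of 0.31 in edgeR. Cyp4a8-ps1 gave 0.52 ± 0.23 and an adjusted p of 0.33. For both, the lowest IL-1βlow library lay just above the highest untreated one.

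In conditioned cells the challenge lowered the pseudogene and left Cyp4a8 just short of a call. In IL-1βlow + CYT vs. IL-1βlow, where 3.88% of all genes were called, Cyp4a8-ps1 and Kdr passed as lower and Apela as higher; all 6 were chosen on values that include the IL-1βlow + CYT libraries, and the count is no support for a pattern. Cyp4a8-ps1 fell by 1.25 ± 0.24 on the log2 scale, with an adjusted p of 0.0019 in edgeR, and lost its call without IL-1βlow replicate 1 (log2 fold change -1.11, adjusted p = 0.012). Cyp4a8 showed -0.93 ± 0.22 with an adjusted p of 0.011. With the replicate number as a block it was at -0.95 with an adjusted p of 2.6e-05 in edgeR, still short of the fold change minimum. Cyp4a8 was called without IL-1βlow + CYT replicate 1, at -1.14. In this comparison the 3 IL-1βlow + CYT libraries of each gene lay below the 3 IL-1βlow libraries.

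In RefSeq order Cyp4a8 and Cyp4a8-ps1 stand between Cyp4x1 and Cyp4a2, followed by Cyp4a3, Cyp4a1 and Cyp4b1. Cyp4x1 encodes a P450 of the same family and was also lowest in CYT cells, with overlapping ranges in IL-1βlow and untreated cells: 6.02, 5.50 and 3.65 CPM in untreated cells, 5.38, 4.23 and 5.43 CPM after IL-1βlow, 0.380, 0.350 and 0.307 CPM after CYT, and 3.53, 1.99 and 2.20 CPM after IL-1βlow + CYT. It fell with CYT (log2 fold change -3.85 ± 0.33, adjusted p = 1.9e-07 in edgeR) and was higher in IL-1βlow + CYT vs. CYT (2.86 ± 0.35, adjusted p = 1.2e-05). The interaction of IL-1βlow and CYT, tested as the difference between the CYT response with and without conditioning, was 2.88 ± 0.43 for Cyp4x1 (adjusted p = 0.00018), in a test that called 10.7% of all genes. On the other side of the pair the genes were at the floor: Cyp4a1 and Cyp4a3 had 1 read each in all 12 libraries together, Cyp4a2 had 0, and Cyp4b1 had 8. LOC120102952, which stands next to Cyp4x1 and lies within the span of Pdzk1ip1, was called as well, at -2.24 with CYT and 2.60 in IL-1βlow + CYT vs. CYT. Without strand its reads cannot be told from those of Pdzk1ip1. The tested genes further out, Stil, Tal1, Pdzk1ip1 and Efcab14, were not called in either of these comparisons.

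Of 15 listed Cyp4 genes other than the members, 6 were tested. With CYT, 1 was called lower (Cyp4x1) and 1 higher, Cyp4f17, a P450 of the leukotriene-metabolizing branch, with 1.07 ± 0.17. The Cyp4f17 call was lost without untreated replicate 2, at 0.93. The median log2 fold change of the 6 was -0.20, beside -0.04 over all genes, of which 21.6% were called in CYT vs. untreated. Among 30 genes of PPARα and its fatty acid targets, 18 were tested, and CYT called 2 higher and 1 lower. Ppara itself rose by 1.40 ± 0.21 on the log2 scale with CYT. Plin2, a lipid droplet coat protein, rose by 1.12 ± 0.13, while Cpt1b, which admits fatty acids to mitochondria, fell by 1.17 ± 0.29 and was higher in IL-1βlow + CYT vs. CYT at 1.53 ± 0.29. The Cpt1b fall lost its call without untreated replicate 2 or 3 or without CYT replicate 2 or 3 (-1.14 to -0.96).

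**Figure D3:**
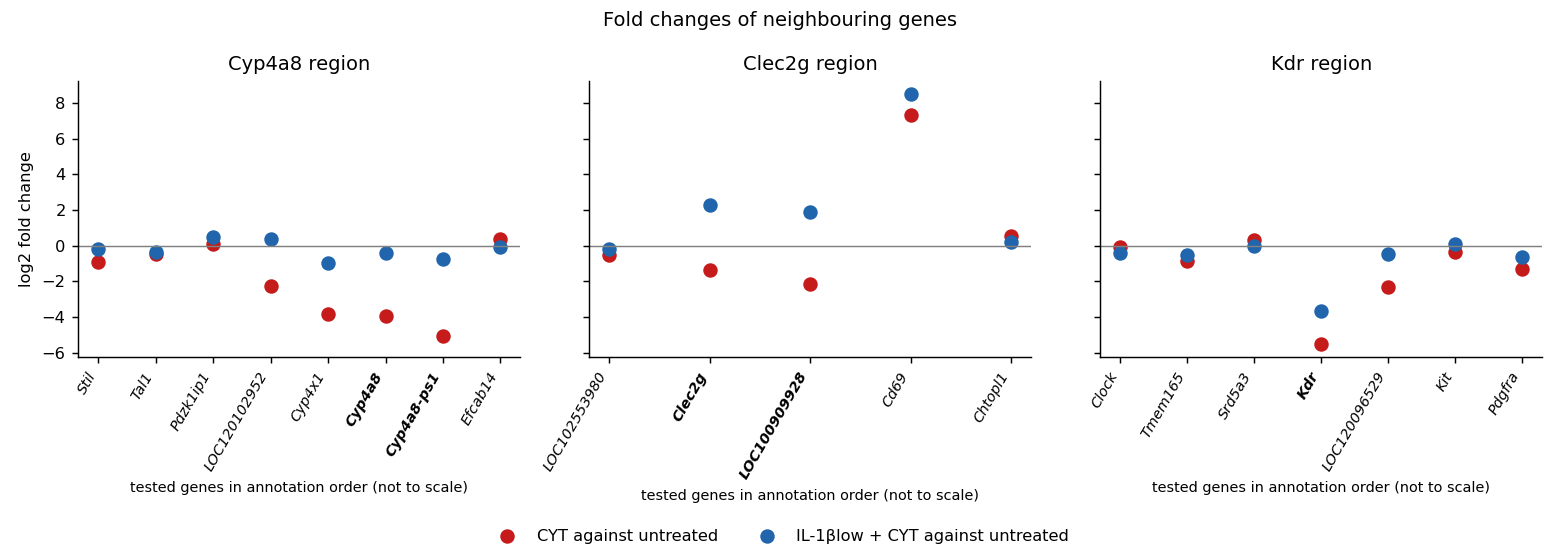
Log2 fold changes against untreated cells for CYT (red) and IL-1βlow + CYT (blue), for the members (bold) and the tested genes around them in annotation order, not to scale. Cyp4x1, Cyp4a8 and Cyp4a8-ps1 lie at -3.85, -3.92 and -5.07 with CYT, and Cd69 beside LOC100909928 at 7.33, a fitted value that rests on 4 untreated reads.

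Clec2g and LOC100909928 stood highest in the cells that received both treatments. Clec2g measured 4.12, 1.72 and 1.88 CPM in untreated cells, 6.46, 2.64 and 3.08 CPM after IL-1βlow, 1.96, 0.466 and 0.613 CPM after CYT, and 17.3, 7.81 and 12.4 CPM after IL-1βlow + CYT. Replicate 1 was the highest library in each of the 4 groups, and the CYT range overlapped the untreated range through it. Only IL-1βlow + CYT lay clear of the 3 other groups. LOC100909928 measured 4.41, 2.31 and 3.34 CPM in untreated cells, 8.41, 4.17 and 7.90 CPM after IL-1βlow, 1.41, 0.699 and 0.153 CPM after CYT, and 13.7, 9.20 and 14.1 CPM after IL-1βlow + CYT. For this RNA the CYT libraries were below all others and the IL-1βlow + CYT libraries above all others.

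On summed counts Clec2g was 2.56-fold lower in CYT than in untreated cells (95% exact counting interval 1.86 to 3.56) and LOC100909928 was 4.53-fold lower (3.20 to 6.53). In IL-1βlow + CYT cells the levels were 4.68 times (3.87 to 5.69) and 3.61 times (3.04 to 4.29) the untreated level. Against CYT the ratios were 12 (9.10 to 16.0) and 16.3 (11.9 to 23), and the log2 fold changes of 3.61 ± 0.51 and 4.03 ± 0.45 ranked 17th and 11th from the top, in a comparison that called 12.5% of all genes. The CYT values of LOC100909928 rest on 26, 12 and 3 reads, and 1 library could move the values of both genes. In CYT vs. untreated the log2 fold change of Clec2g, -1.34 ± 0.56 with all libraries, was -2.20 without CYT replicate 1 and -0.81 without untreated replicate 1. That of LOC100909928, -2.16 ± 0.49, was -2.97 without CYT replicate 1 and -1.62 without CYT replicate 3. Without CYT replicate 1, the values in IL-1βlow + CYT vs. CYT were 4.46 and 4.84.

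With IL-1βlow alone Clec2g was at 4.06 ± 2.09 CPM (SD, n = 3) against 2.58 ± 1.34 CPM, and its log2 fold change was 0.67 ± 0.48 (adjusted p = 0.52, edgeR). LOC100909928 was at 6.83 ± 2.31 CPM against 3.35 ± 1.05 CPM, with 1.03 ± 0.38 and an adjusted p of 0.26. Neither was called, and the groups overlapped for both, although each same-numbered IL-1βlow library was above its untreated counterpart. In IL-1βlow + CYT vs. IL-1βlow, Clec2g showed 1.60 ± 0.43 with an adjusted p of 0.024, short of the call. With the replicate number as a block, which takes out the high level of replicate 1, the value was 1.66 with an adjusted p of 1.1e-05 in edgeR, and Clec2g was called. LOC100909928 showed 0.85 ± 0.35 with an adjusted p of 0.15, and was not called with the block. Both genes were chosen on values that include the IL-1βlow + CYT libraries, so these values and the call are given as a description.

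LOC100909928 made up 56.4% of the counts of the pair in untreated cells (95% exact binomial interval 50.6 to 62.1), 62.2% after IL-1βlow (58.1 to 66.1), 42.3% after CYT (32.3 to 52.7) and 50.0% after IL-1βlow + CYT (47.2 to 52.7). The library kit is not stated to keep strand, and the spans of the pair do not overlap in GRCr8. In RefSeq order the next gene is Cd69, whose product is an early activation marker of lymphocytes and another lectin of the same gene complex. Cd69 had 1, 2 and 1 reads in untreated cells, 7, 6 and 2 after IL-1βlow, 271, 159 and 340 after CYT, and 465, 508 and 704 after IL-1βlow + CYT. It rose with CYT, to 177 times the untreated level on summed counts (95% exact counting interval 69.0 to 653, from 770 and 4 reads, adjusted p = 6.8e-09 in edgeR), where Clec2g and LOC100909928 stood lower, and was higher again in IL-1βlow + CYT vs. CYT at 1.20 ± 0.23. That last call was lost without CYT replicate 2 (0.98) or without IL-1βlow + CYT replicate 3 (0.95). Leukocyte markers gave 9 of 12 genes below 1 CPM in every library, Ptprc and Cd3e among them, and the list summed to 3.26 to 5.23 CPM in untreated, 4.17 to 5.86 in IL-1βlow, 4.72 to 6.41 in CYT and 8.56 to 9.61 CPM in IL-1βlow + CYT libraries. Adgre1, a macrophage marker of this list, moved with Cd69: it had 1, 0 and 0 reads in untreated cells, 0 in each IL-1βlow library, 36, 14 and 25 after CYT, and 37, 54 and 58 after IL-1βlow + CYT, and was called higher in both challenged groups. The part of those markers in the Clec2g and Cd69 values was not tested.

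The receptors that bind Clec2 proteins were hardly present: Klrb1 and Klrb1a had 3 reads each over the 12 libraries, Klrb1b had 2 and Klrb1c had 0. Among the other Clec2 genes, Clec2d stayed between group means of 0.889 and 1.48 CPM without a call, Clec2e had 2 reads and Clec2h had 0. Clec2l, a family member known from brain, fell with CYT by 1.14 ± 0.20 on the log2 scale and lost its call without CYT replicate 3. Of 20 listed ligands of other natural killer cell receptors, 8 were tested. With CYT, which called 21.6% of all genes, 5 were called higher and 1 lower. Their median log2 fold change was 2.00 beside -0.04 over all genes. Icam1, which engages the integrin LFA-1, rose by 5.80 ± 0.25, Lgals9 by 4.79 ± 0.22, RT1-CE10 by 3.27 ± 0.12, B2m by 2.81 ± 0.10 and Nectin2 by 1.20 ± 0.10. Nectin3 fell by 1.84 ± 0.18. In IL-1βlow + CYT vs. CYT, which called 12.5% of all genes, Icam1 (-2.19 ± 0.19), Lgals9 (-2.06 ± 0.19) and RT1-CE10 (-1.06 ± 0.11) were lower. Nectin3 was higher at 1.10 ± 0.18, a call lost without IL-1βlow + CYT replicate 3 (0.88). RT1-CE10 belongs to a multigene family whose members can share reads, so its level is uncertain.

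Kdr was low in both challenged groups. It measured 8.02, 14.6 and 8.69 CPM in untreated cells, 4.92, 10.4 and 8.27 CPM after IL-1βlow, 0.326, 0.175 and 0.153 CPM after CYT, and 0.669, 0.497 and 1.37 CPM after IL-1βlow + CYT. All 6 challenged libraries were below all 6 others, and the untreated and IL-1βlow ranges overlapped. The CYT libraries held 6, 3 and 3 reads and the IL-1βlow + CYT libraries 11, 10 and 23. On summed counts the level in CYT was 47.9-fold lower than in untreated cells (95% exact counting interval 27.2 to 93.4), and in IL-1βlow + CYT it was 12.7-fold lower (9.30 to 17.6), or 8.08% of the untreated mean.

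As log2 fold changes, Kdr was at -5.54 ± 0.47 in CYT vs. untreated, the 5th lowest gene, and at -3.64 ± 0.39 in IL-1βlow + CYT vs. untreated, the 3rd lowest, where 5.99% of all genes were called. Between the challenged groups Kdr was 3.79 times higher with IL-1βlow (1.97 to 7.88 from 44 and 12 reads), and the 2 groups did not overlap. The log2 fold change of 1.90 ± 0.62 was 1.38 without IL-1βlow + CYT replicate 3. IL-1βlow alone gave 7.87 ± 2.77 CPM (SD, n = 3) against 10.4 ± 3.63 CPM, a log2 fold change of -0.41 ± 0.30 with an adjusted p of 0.54 in edgeR. In IL-1βlow + CYT vs. IL-1βlow, Kdr fell by 3.23 ± 0.39 on the log2 scale with an adjusted p of 3.6e-05. That was the 3rd lowest value of the comparison. It met the call rule whichever of the 12 libraries was left out, with adjusted p-values from 1.9e-05 to 0.0004 in edgeR. Kdr passed the filter on low counts through 7 libraries, all those of untreated and IL-1βlow cells and IL-1βlow + CYT replicate 3. Since Kdr was also chosen on its values in challenged libraries, this fall is given as a description.

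The other VEGF receptors were low at all times. Flt1 had 4 reads over the 12 libraries, and Flt4 had group means of 0.518 to 0.697 CPM. Of the neuropilins, co-receptors that bind VEGF beside Kdr, Nrp2 was higher in both challenged groups and Nrp1 chiefly in IL-1βlow + CYT cells. Nrp2 measured 3.55, 3.20 and 2.92 CPM in untreated cells, 5.54, 3.56 and 4.57 CPM after IL-1βlow, 49.1, 47.1 and 65.2 CPM after CYT, and 22.1, 19.3 and 23.1 CPM after IL-1βlow + CYT. It rose with CYT by 4.06 ± 0.18 on the log2 scale (adjusted p = 2.6e-10, edgeR) and was lower in IL-1βlow + CYT vs. CYT at -1.32 ± 0.15. Nrp1 was called in conditioned cells and not with CYT alone (0.40 ± 0.12): its group means were 23.2, 29.3, 30.7 and 77.4 CPM in untreated, IL-1βlow, CYT and IL-1βlow + CYT cells. It rose by 1.40 ± 0.12 in IL-1βlow + CYT vs. IL-1βlow and stood at 1.33 ± 0.12 in IL-1βlow + CYT vs. CYT. Its interaction value, 1.00 ± 0.17 with an adjusted p of 0.00057, fell just short of the fold change minimum.

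Of the 5 VEGF ligands, 3 were tested. Vegfa, the main ligand of Kdr, measured 382 ± 33.5 CPM in untreated, 345 ± 24.2 in IL-1βlow, 638 ± 34.9 in CYT and 343 ± 71.6 in IL-1βlow + CYT cells (SD, n = 3). With CYT its value of 0.74 ± 0.12 on the log2 scale, with an adjusted p of 0.00012, fell short of the fold change minimum. Vegfb, which binds Flt1 and neuropilin, rose with CYT by 1.68 ± 0.13. Vegfc was at group means of 1.17 to 2.61 CPM without a call, and Vegfd and Pgf had 8 and 48 reads in all. Among 24 genes of signalling below Kdr and its feedback, 21 were tested and CYT called 2 higher, the kinase Prkca (1.34 ± 0.14) and the receptor Notch1 (1.29 ± 0.20), in a comparison that called 21.6% of all genes. The median over the list was 0.23, beside -0.04 over all genes. Prkca was lower in IL-1βlow + CYT vs. CYT, at -1.13 ± 0.14. Hspg2, a heparan sulfate proteoglycan of the matrix, rose by 1.50 ± 0.18 with CYT and by 1.06 ± 0.18 in IL-1βlow + CYT vs. IL-1βlow, the latter lost without IL-1βlow replicate 1 or IL-1βlow + CYT replicate 2.

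**Figure D4:**
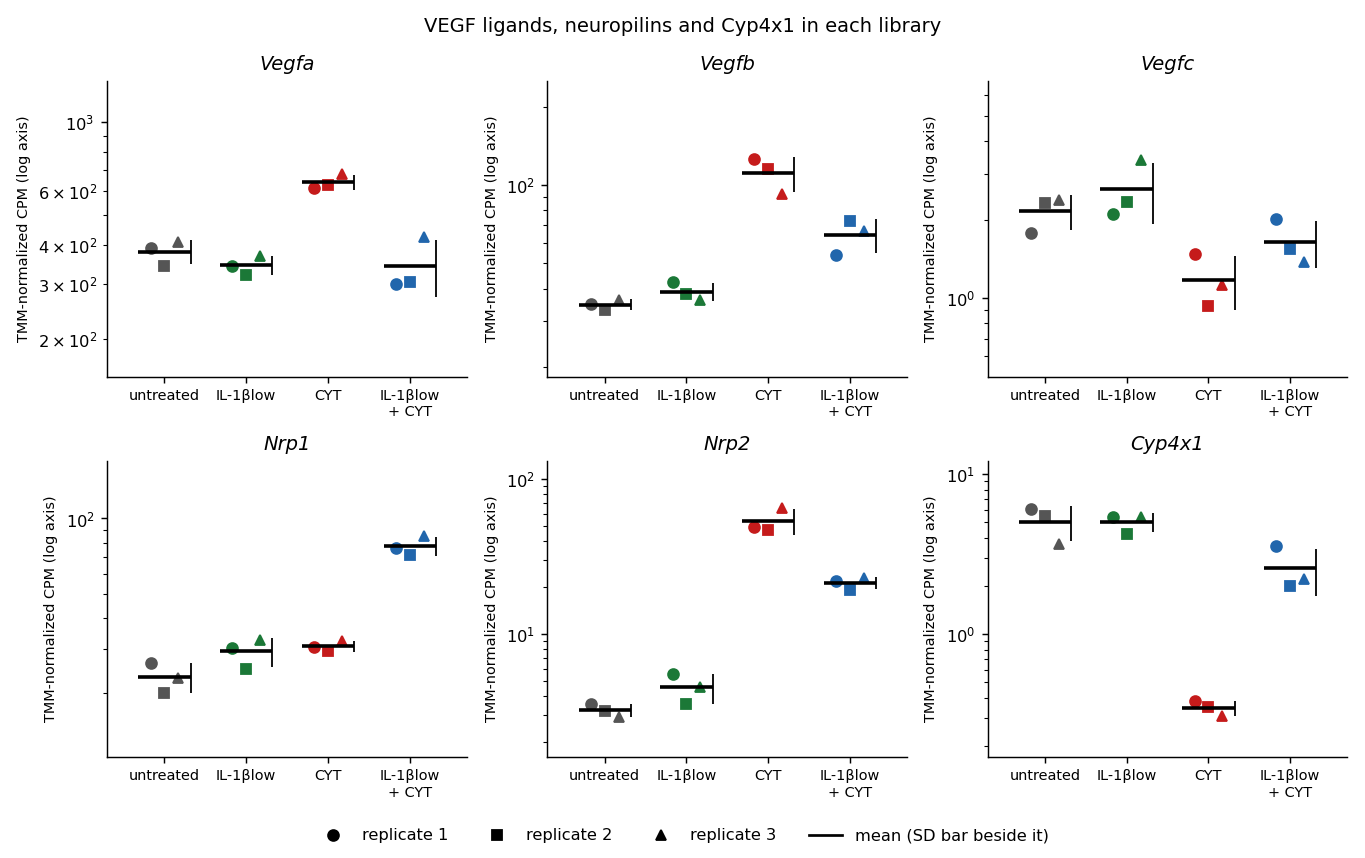
TMM-normalized CPM (log axis) of 3 VEGF ligands, the 2 neuropilins and Cyp4x1 in each of the 12 libraries, with group means and 1 SD. Nrp2 is highest in CYT libraries (47.1 to 65.2 CPM), Nrp1 in IL-1βlow + CYT libraries (71.1 to 84.7 CPM), and Cyp4x1 is lowest in CYT libraries (0.307 to 0.380 CPM).

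Endothelial markers were checked because Kdr is best known from that cell type. Of the 15, 10 were below 1 CPM in every library, Pecam1, Cdh5, Tek and Tie1 included, and 4 had no read at all. Another 5 were tested, Plvap among them. Group means were 33.3 to 42.6 CPM for Esam, 10.9 to 15.3 for Egfl7, 4.11 to 7.22 for Vwf and 0.902 to 1.38 CPM for Erg. The summed level ran from 57.2 to 67.5 CPM in untreated, 56.9 to 76.2 in IL-1βlow, 82.4 to 110 in CYT and 69.2 to 86.7 CPM in IL-1βlow + CYT libraries. Plvap, a protein of endothelial fenestrae, was at 0.592 CPM in untreated and 45.7 CPM in CYT cells. Without it the other 14 markers summed to 56.7 to 67.1 CPM in untreated, 56.1 to 74.5 in IL-1βlow, 39.7 to 55.0 in CYT and 57.7 to 71.9 CPM in IL-1βlow + CYT libraries, most of it Esam. The part of these markers in the Kdr values was not tested. Around Kdr, 10 genes were taken from the annotation and 6 were tested. The adjacent LOC120096529 was lower with CYT at -2.30 and higher in IL-1βlow + CYT vs. CYT at 1.85, and Pdgfra was lower with CYT at -1.29. Clock, Tmem165, Srd5a3 and Kit were not called with CYT.

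Apela was the 1 gene of the 6 that was higher in CYT than in untreated cells. Its levels were 0.344, 0.533 and 0.182 CPM in untreated cells, 0.308, 0.245 and 0.494 CPM after IL-1βlow, 19.1, 25.1 and 27.3 CPM after CYT, and 0.669, 1.34 and 1.78 CPM after IL-1βlow + CYT. In reads, that was 6, 9 and 3, then 6, 4 and 8, then 352, 430 and 534, and 11, 27 and 30. The CYT libraries stood far above all others, and the IL-1βlow + CYT libraries were above the untreated and IL-1βlow ones. Apela passed the filter on low counts through 5 libraries, the 3 of CYT and replicates 2 and 3 of IL-1βlow + CYT.

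On summed counts Apela was 67.4-fold higher in CYT than in untreated cells (95% exact counting interval 42.5 to 114), with a log2 fold change of 6.04 ± 0.34, the 90th highest. In IL-1βlow + CYT it was 18.7-fold lower than in CYT (14.7 to 24.3), at -4.22 ± 0.28, the 11th lowest. It remained 3.60 times the untreated level (2.11 to 6.42, from 68 and 18 reads). IL-1βlow alone left 0.349 ± 0.129 CPM (SD, n = 3) against 0.353 ± 0.175 CPM, a log2 fold change of -0.03 ± 0.55 with an adjusted p of 0.99 in edgeR, from 18 reads in each group, a depth at which the counting interval of the ratio ran from 0.479 to 1.99. Apela was at 1.85 ± 0.43 in IL-1βlow + CYT vs. IL-1βlow, and the groups did not overlap. Since Apela entered the fit through challenged libraries only and was chosen on its values in them, this is given as a description. The value met the call rule on few reads and no longer did so in 8 of 12 fits on 11 libraries, without each of the 3 IL-1βlow libraries, IL-1βlow + CYT replicates 2 and 3, untreated replicates 1 and 2, or CYT replicate 2, with log2 fold changes of 1.55 to 2.16 over the 12 fits.

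**Figure D5:**
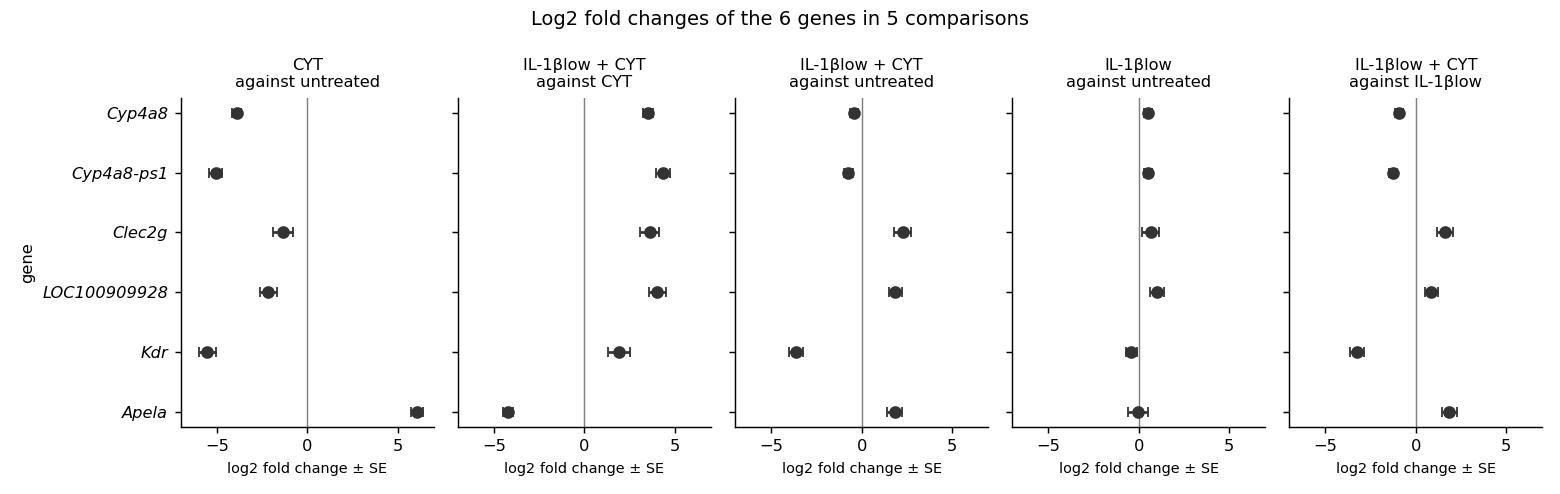
Log2 fold change with its SE for the 6 genes in 5 comparisons, from the edgeR fit of 12 libraries. The 3 panels on the left are descriptions, because the genes were chosen on these or on comparisons that combine them. The last panel on the right shares the IL-1βlow + CYT libraries with that choice and is a description too. With CYT the values run from -5.54 (Kdr) to 6.04 (Apela), and IL-1βlow alone gives values between -0.41 and 1.03.

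Among the other genes of the apelin system, the receptor and apelin itself were near the floor. Aplnr, the receptor of Apela, had 13 reads over the 12 libraries and at most 0.238 CPM, and Apln, which encodes apelin, had 69 reads and at most 0.767 CPM. Apln had 6 reads in untreated, 5 in IL-1βlow, 34 in CYT and 24 in IL-1βlow + CYT cells. It was too low to be tested. Of the 14 listed genes in the table, 11 were tested. With CYT, which called 21.6% of all genes, 1 was called lower: Mme, a peptidase that degrades apelin, at -1.90 ± 0.43. That call was lost without CYT replicate 1 (-1.60). Mme was also called lower in IL-1βlow + CYT vs. IL-1βlow, at -1.80 ± 0.43, with an adjusted p of 0.0098 that passed the threshold in 2 of 12 fits on 11 libraries. Pcsk5, a proprotein convertase, was lower in IL-1βlow + CYT vs. CYT at -1.39 ± 0.22. Of the 10 genes around Apela, 3 were tested and 0 called in any comparison, too few to compare with the shares over all genes.

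Over the 12 libraries, Pearson's r of log2 CPM was 0.987 between Cyp4a8 and Cyp4a8-ps1, 0.917 between Clec2g and LOC100909928, 0.161 between Kdr and Clec2g and -0.967 between Cyp4a8 and Apela. These points share the 4 groups, so r largely describes the order of the group levels. The genes most like Cyp4a8 by this measure were Hmgb2l1 (0.9927), Ccdc187 (0.9911) and Ywhaz (0.9908), and those most like Cyp4a8-ps1 were LOC120098901, Sgce and Tle4, from 0.9912 to 0.987. For Clec2g they were Arg1, which encodes arginase, at 0.9618, Ppp1r14c at 0.9522 and Pxdn at 0.9491. Arg1 had group means of 305, 321, 226 and 403 CPM in untreated, IL-1βlow, CYT and IL-1βlow + CYT cells. LOC100909928 was nearest to Synj2 (0.9735), Jph4 (0.9662) and Anp32a (0.9632). Kdr was nearest to RGD1309104 (0.989), Crem (0.9869) and Iqgap2 (0.9857). Iqgap2, a scaffold protein, had group means of 43.0, 38.1, 3.50 and 8.11 CPM. For Apela the nearest were Ndel1 (0.9893), Maff (0.989) and Sgip1 (0.9889). Maff, a small MAF transcription factor, had group means of 4.36, 5.19, 105 and 12.2 CPM.

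The group means of the 6 genes ran in 4 orders. Cyp4a8 and Cyp4a8-ps1 ran, from high to low, IL-1βlow, untreated, IL-1βlow + CYT and CYT, with overlap between untreated and IL-1βlow + CYT. Clec2g and LOC100909928 ran IL-1βlow + CYT, IL-1βlow, untreated and CYT, with overlap between untreated and IL-1βlow for both and between untreated and CYT for Clec2g. Kdr ran untreated, IL-1βlow, IL-1βlow + CYT and CYT, with overlap between the first pair. Apela ran CYT, IL-1βlow + CYT, untreated and IL-1βlow, with overlap between the last pair.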

How the data were processed

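PolyA RNA from 12 INS-1E cultures, 3 labelled biological replicates in each of 4 groups, was made into TruSeq libraries. Quality control by the authors used FastQC and trimming used rfastp; Rsubread then served for alignment (build mRatBN7.2) and its featureCounts for assigning reads to genes. Deposited values are read counts for each gene symbol, as whole numbers that were not normalized, and the strand setting is not given in the sources used here. Every column was matched to a sample by its library name.

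A gene had to exceed a CPM of 1 in 2 or more libraries. TMM factors were computed and 1 quasi-likelihood model (glmQLFit, glmQLFTest) fitted to all 12 libraries, with 8 residual degrees of freedom, in R 4.3.3 with edgeR 4.0.16 and limma 3.58.1; DESeq2 1.42.0 served as an alternative. P-values are two-sided with Benjamini-Hochberg adjustment over 14324 genes, and an SE is the log2 fold change over the square root of F. Fitted fold changes use a prior count of 0.125. Ratios of summed counts carry exact 95% intervals of counting error only, since reads counted without molecular identifiers may repeat a molecule. Total counts were 15812640 to 20246806 per library. Scripts were tested on simulated counts.

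The members, the gene lists, the motifs and the rule for naming genes were chosen with earlier results of these data known. The genes named are the members, their ligands, receptors and family genes, up to 6 called genes of each list, the 3 most correlated genes per member and called neighbours out of the 5 on either side. Marker genes, uncalled neighbours, Plvap, Arg1, Iqgap2 and Maff named with values outside that rule were picked after their values were seen. Lists were summarised by counts and medians. Names and gene order come from RefSeq on GRCr8, which held 29433 of the 34034 symbols; it is not the build of the counts.

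Replicate numbers come from the labels. Deviations from group means correlated between same-numbered libraries at 0.179, 0.469 and 0.520 in IL-1βlow + CYT vs. IL-1βlow and at 0.116, 0.475 and 0.453 in IL-1βlow + CYT vs. CYT. The main fit was unpaired in all comparisons, so its SEs, p-values and calls ignore this pairing. A fit with the replicate number as a block was an alternative, and its value is given where it changes a call. The alternatives were RLE factors, library size alone, DESeq2, exactTest, no filter, filterByExpr, fits of 2 groups, the block, an adjusted p under 0.05 with no fold minimum, a prior count of 2 and leaving out each library.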

Additional observations from a re-analysis of the deposited data

Results flagged for a closer look

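The CYT response of 8 genes from the lists of pathways, families and ligands differed between conditioned and unconditioned cells, by the interaction test of edgeR's quasi-likelihood fit (adjusted p under 0.01 and a log2 value beyond 1; 3 libraries per group). That test called 10.7% of all 14324 genes, so the count of 8 is not read as a result about these lists. The value is the log2 response to CYT with IL-1βlow minus that without. Beside Cyp4a8, Cyp4x1 gave 2.88, since its level was lower with CYT by 3.85 on the log2 scale in unconditioned cells and by 0.97 in conditioned cells. Among ligands of natural killer cell receptors, Nectin3 gave 1.73, Icam1 -2.58, Lgals9 -2.22, RT1-CE10 -1.59 and B2m -1.08. In the VEGF group, the co-receptor Nrp2 gave -1.83 and the kinase Prkca -1.03. The Prkca call was lost without IL-1βlow + CYT replicate 1 or 2, IL-1βlow replicate 3 or CYT replicate 3, with values of -0.98 to -0.93. The groups of 3 libraries were too small for the test for outlying samples. The marker lists held 8 more genes called by the same test, 6 of them β-cell markers with positive values, and Plvap and Lrp2 with negative ones.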

How the results depend on the processing

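Kdr, Cyp4a8, Cyp4a8-ps1, Clec2g and LOC100909928 kept the direction of their fold change in every alternative run, and Apela did so in every comparison but IL-1βlow vs. untreated. There Apela ranged from -0.34 to 0.38 as single libraries were left out, with the sign turned without IL-1βlow replicate 1 (0.06), untreated replicate 2 (0.38) and IL-1βlow replicate 2 (0.14).

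In IL-1βlow vs. untreated, 62 genes were called, 139 with DESeq2, 137 with exactTest, 229 with no filter on low counts, 141 with the replicate block, 193 at an adjusted p under 0.05 with no fold minimum, and 16 to 87 as single libraries were left out. It fell to 16 without untreated replicate 3, 18 without IL-1βlow replicate 1, 21 without untreated replicate 1, 23 without IL-1βlow replicate 2 and 29 without untreated replicate 2. All 62 genes were among the 141 called with the replicate block, which did not change a call of the 6 genes there. With no filter, 1 of the 6 was called, LOC100909928 (1.04).

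Counts of members in IL-1βlow + CYT vs. IL-1βlow are a description, since all 6 were chosen on values that include the former libraries. There 3 of the 6 genes were called, beside 3.88% of all genes. As single libraries were left out it was 1 to 4 (1 without IL-1βlow replicate 1). At an adjusted p under 0.05 with no fold minimum 5 were called, with Cyp4a8 (-0.93) and Clec2g (1.60) added. Clec2g was also called with exactTest (1.61), with no filter (1.61) and with the replicate block (1.66), and the block changed no other call of the 6 or of the list genes named. Apela was not called with only the 2 groups (1.86). Leaving out single libraries gave -1.14 to -0.80 for Cyp4a8, -1.40 to -1.09 for Cyp4a8-ps1 and 1.55 to 2.16 for Apela. With no fold minimum at an adjusted p under 0.05, 1855 genes were called there, 8926 in CYT vs. untreated, 7267 in IL-1βlow + CYT vs. CYT, 3124 in IL-1βlow + CYT vs. untreated and 5337 in the interaction. A prior count of 2 moved Cyp4a8-ps1 to -4.45 in CYT vs. untreated and to 3.74 in IL-1βlow + CYT vs. CYT, since it draws low counts together. The causes of the other changes were not tested.

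Depth limits Kdr, Cyp4a8-ps1 and Apela, whose lowest groups rest on 12, 10 and 18 reads. Fits of 2 groups left Apela out in IL-1βlow vs. untreated and Kdr out in IL-1βlow + CYT vs. CYT, where they failed the filter, and the interaction could not be fitted with exactTest or with 2 groups. Of 12 libraries, 9 deviated most like a library of their own number.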
